A study of Mus musculus with 272 samples.

Results

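Glycolysis in skeletal muscle can run on isoforms found in nearly every cell or on isoforms that mature myofibres favour. The 10 genes described here are isoforms of 5 enzymes of the pathway, *Hk1* and *Hk2*, *Pfkm*, *Pfkl* and *Pfkp*, *Aldoa*, *Pgam1* and *Pgam2*, and *Eno1* and *Eno3*. They were chosen by name from the GENCODE M21 annotation of mm10. They hold 11 of its 21938 protein-coding gene records, because *Aldoa* carries more than a single record. Shares of all protein-coding genes below are counted by record. Of the 10 genes, *Hk1*, *Pfkl*, *Pfkp*, *Aldoa*, *Pgam1* and *Eno1* were taken as the 6 ubiquitous or broadly expressed isoforms, and *Hk2*, *Pfkm*, *Pgam2* and *Eno3* as the 4 muscle isoforms. The split rests on what is commonly known of these genes, and no expression was measured here. *Aldoa* has no muscle partner and was read by its start sites.

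The chromatin was that of muscle stem cells (MuSCs), the Pax7-expressing cells that lie along myofibres and rebuild them after injury. Per the extraction protocol in the labels, they were GFP+ cells sorted from the hindlimb muscles of Pax7Cas9 mice, in which, per the study's methods, Pax7Cre switches on a Cas9-EGFP cassette at *Rosa26*. No library from mice without Cas9 was used here. The labels name the tissue as skeletal muscle and give neither age nor treatment for these samples. Of the 272 samples of the series, 8 were used, 2 replicates each of ATAC-seq, which cuts DNA where chromatin is open, and of ChIP-seq against a histone modification. These were H3K4me3, found at start sites in use or ready for use, H3K27ac, found at active regulatory DNA, and H3K27me3, laid down by Polycomb at silent genes. Nothing in the labels says that the replicates came from separate animals, so the spread between them may be technical.

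The authors called peaks in each library separately, and the lists held 94574 to 140937 peaks for ATAC-seq, 18006 to 24217 for H3K4me3 and H3K27ac, and 6080 to 10485 for H3K27me3. The lists hold no read numbers, so the depth is unknown, and a place without a listed peak may hold signal below the limit of the caller. The fold enrichments given below are the authors' values at the summit of a peak, on a linear scale. With 2 libraries against 2, an exact permutation test cannot give a two-sided p below 0.333, so none was run, and values are given by replicate. Of 13 marker genes of MuSCs, 13 had ATAC-seq and H3K4me3 peaks within 3 kb of a start site in both replicates and 12 had H3K27ac. Of 10 myofibre genes, the same count was 9 for ATAC-seq, 5 for H3K4me3 and 3 for H3K27ac. For 10 fibro-adipogenic, 10 endothelial and 9 blood cell genes in turn, it was 6, 8 and 7 for ATAC-seq. For H3K4me3 it was 5, 5 and 4, and for H3K27ac 3, 1 and 1. Over all protein-coding genes the shares by this rule were 67.8% for ATAC-seq, 60.8% for H3K4me3 and 46.6% for H3K27ac. The part that other cells in the sort had in the peaks below was not tested.

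Glycolysis splits glucose into pyruvate. Hexokinases trap glucose in the cell as its phosphate, phosphofructokinases commit it to the pathway, aldolase cleaves the six-carbon sugar, phosphoglycerate mutases move a phosphate group within a three-carbon acid, and enolases remove water from it. MuSCs at rest are known to draw little on glycolysis, to use it more once they are activated, and to give rise to fibres that hold large amounts of these enzymes.

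RefSeq start sites of GRCm38.p6, the same assembly as mm10, were found for all 10 genes, 18 in all. The bases before 8 of them are printed because they show the contrast on which the promoter results turn, between start sites with and without H3K4me3. Each is given from 5′ to 3′ on the strand of the gene, in lower case, with capitals for every CG pair and for the motifs searched on both strands (the GC box, the core of the hypoxia response element, both E-boxes, the TATA motif and the MEF2 motif, spelled out further on). Bases in an annotated exon of the gene were left out, which shortened the stretches of *Pfkl* and of the marked *Hk1* start.
Pgam1: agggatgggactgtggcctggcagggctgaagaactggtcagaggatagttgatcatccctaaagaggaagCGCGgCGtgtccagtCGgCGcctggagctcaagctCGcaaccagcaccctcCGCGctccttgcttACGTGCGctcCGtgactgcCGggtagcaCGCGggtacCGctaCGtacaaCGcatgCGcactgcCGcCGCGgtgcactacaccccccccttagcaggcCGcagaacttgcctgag
Pgam2: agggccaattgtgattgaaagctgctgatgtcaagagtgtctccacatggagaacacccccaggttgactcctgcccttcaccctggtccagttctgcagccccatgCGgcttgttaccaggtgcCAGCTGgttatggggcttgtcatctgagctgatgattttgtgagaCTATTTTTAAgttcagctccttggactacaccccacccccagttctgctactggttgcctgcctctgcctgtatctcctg
Hk1, upstream start: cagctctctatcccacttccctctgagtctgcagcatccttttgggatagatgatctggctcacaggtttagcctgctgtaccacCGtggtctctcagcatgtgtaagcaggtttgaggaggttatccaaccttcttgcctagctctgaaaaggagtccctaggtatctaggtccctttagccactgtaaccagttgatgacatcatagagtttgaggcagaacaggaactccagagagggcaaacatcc
Hk1, marked start: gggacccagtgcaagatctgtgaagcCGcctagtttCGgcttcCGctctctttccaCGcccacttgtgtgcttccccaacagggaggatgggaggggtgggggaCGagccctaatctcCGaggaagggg
Hk2: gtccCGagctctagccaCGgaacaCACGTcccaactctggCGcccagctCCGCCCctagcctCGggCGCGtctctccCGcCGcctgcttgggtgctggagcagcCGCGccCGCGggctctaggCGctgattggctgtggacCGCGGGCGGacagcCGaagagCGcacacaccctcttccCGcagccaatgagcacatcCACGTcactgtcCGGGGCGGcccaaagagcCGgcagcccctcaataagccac
Eno1: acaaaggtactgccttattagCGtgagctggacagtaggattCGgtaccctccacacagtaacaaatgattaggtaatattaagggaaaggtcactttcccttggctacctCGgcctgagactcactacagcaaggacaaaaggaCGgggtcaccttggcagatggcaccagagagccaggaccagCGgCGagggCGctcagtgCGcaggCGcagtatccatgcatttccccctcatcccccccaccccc
Eno3: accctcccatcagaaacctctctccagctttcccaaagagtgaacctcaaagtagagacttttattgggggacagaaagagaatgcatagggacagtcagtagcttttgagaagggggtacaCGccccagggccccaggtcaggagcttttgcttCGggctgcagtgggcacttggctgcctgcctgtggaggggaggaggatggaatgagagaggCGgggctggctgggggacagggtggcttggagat
Pfkl: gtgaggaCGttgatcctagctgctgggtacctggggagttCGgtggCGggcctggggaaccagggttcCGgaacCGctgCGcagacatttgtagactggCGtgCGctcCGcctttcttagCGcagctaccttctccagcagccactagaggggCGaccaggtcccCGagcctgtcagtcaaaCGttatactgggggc
Of these, *Pgam1* (chr19:41911621-41911870, plus strand), the marked *Hk1* start (chr10:62340543-62340671, minus), *Hk2* (chr6:82774455-82774704, minus) and *Eno1* (chr4:150236458-150236707, plus) had H3K4me3 within 250 bp of the start in both replicates. *Pgam2* (chr11:5803797-5804046, minus), the upstream *Hk1* start (chr10:62379909-62380158, minus), *Eno3* (chr11:70656926-70657175, plus) and *Pfkl* (chr10:78009808-78010004, minus) had it in neither.

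The printed stretches differ in their CG pairs. The 250 bases before *Pgam1* hold 22 CG pairs and those before *Hk2* hold 25, against 1 before *Pgam2*, 1 before the upstream *Hk1* start and 3 before *Eno3*. The others lay between, with 13 in the 197 bases of unmarked *Pfkl* and 9 in the 250 of marked *Eno1*, so that the contrast did not hold for every stretch. Over the 250 bases before each of the 18 starts, the ratio of observed to expected CG pairs ran from 0 to 0.860. The 13 starts with H3K4me3 within 250 bp in both replicates had a median ratio of 0.637 (range 0 to 0.860), and the 5 starts with it in neither had a median of 0.156 (range 0.0571 to 0.595). Among all 32851 RefSeq promoters, 40.9% were marked by this rule, with a median ratio of 0.760, and the 18718 without H3K4me3 in either replicate had a median of 0.199. The 18 starts share genes and overlapping bases, so these values describe them and were not tested.

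**Figure D1:**
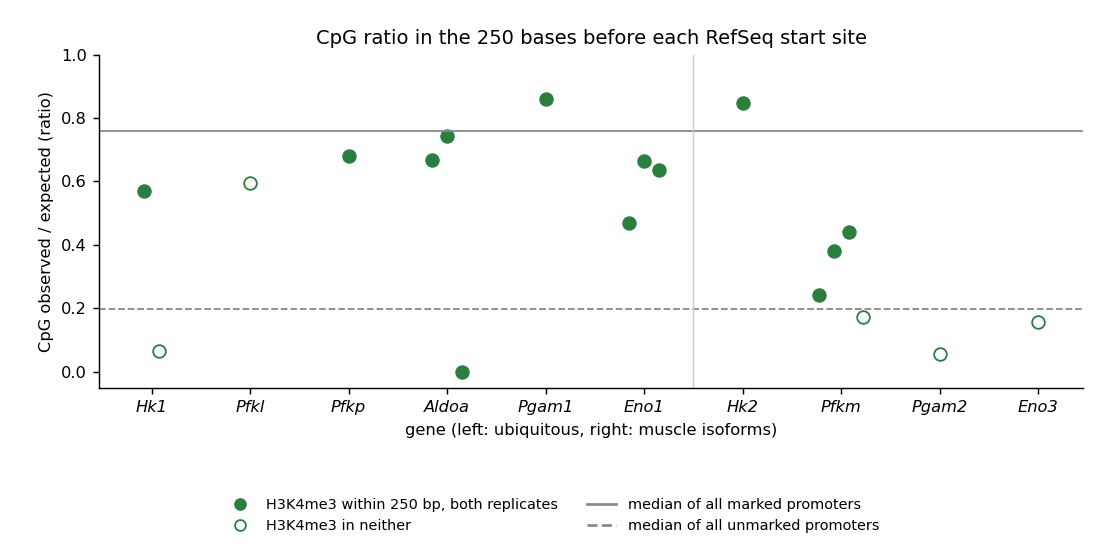
CpG observed-to-expected ratio (y axis, no unit) in the 250 bases before each of the 18 RefSeq start sites, by gene (x axis, ubiquitous isoforms to the left of the grey line). Filled points had H3K4me3 within 250 bp in both replicates and open points in neither, and the lines are the medians over all marked (0.760) and unmarked (0.199) promoters. The open point of *Pfkl* lies at 0.595, and the filled point at 0 is an *Aldoa* start.

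Both ends of the plot hold exceptions. *Pfkl* had no H3K4me3 with a ratio of 0.595, higher than in 65.7% of all promoters. An *Aldoa* start (RefSeq start at chr7:126800447) had H3K4me3 and H3K27ac in both replicates with no CG pair in its 250 bases. The motifs were few. The MEF2 motif is the site of a family of muscle transcription factors. It was searched as YTAWWWWTAR, with Y for C or T, W for A or T and R for A or G. A match was found in the 250 bases of 1 of the 18 starts, that of *Pgam2*, and in 2.92% of all promoters. The E-box CAGCTG, a form that myogenic bHLH factors bind, was likewise found only before *Pgam2* among the 18 and in 13% of all promoters. The GC box GGGCGG was found before *Hk2* (3 matches), *Pfkp* (4), 2 starts each of *Aldoa* and *Eno1*, and in 32.7% of all promoters. The core ACGTG of the hypoxia response element was found before *Hk2* (2 matches), *Pgam1* (1), 2 starts of *Pfkm* and 2 of *Aldoa*, and in 16.6% of all promoters. At the upstream *Pfkm* start both matches lie on the 2 strands of a CACGTG, which contains the core and occurred in 6.02% of promoters. TATAAA was found before none of the 18, and in 12.4% of all promoters. A match describes the letters and was not tested as a site.

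Of the 10 genes, 8 had a peak of ATAC-seq within 3 kb of a start site in both replicates (67.8% of all protein-coding genes), 8 of H3K4me3 (60.8%), 8 of H3K27ac (46.6%) and 0 of H3K27me3 (4.81%). The 8 genes were the same for the first 3 features and lacked *Pfkl* and *Pgam2*. Of the 6 ubiquitous isoforms 5 were among them, and of the 4 muscle isoforms 3. The 3 features together in both replicates, with H3K27me3 in neither, were found at *Hk1*, *Pfkm*, *Pfkp*, *Aldoa*, *Pgam1* and *Eno1*, that is 6 genes, against 44.4% of all protein-coding genes. *Hk2* and *Eno3* fell out of this count through an H3K27me3 peak in replicate 1 alone. These peaks had fold enrichments of 3.75 and 1.66 and −log10 q values of 0.934 and 0.883, short of a q of 0.05.

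A window of 3 kb takes in neighbours. With 250 bp around the start sites in place of 3 kb, a width chosen after seeing the data, ATAC-seq and H3K4me3 in both replicates were left at 7 genes each (61.1% and 58.6% of protein-coding genes) and H3K27ac at 6 (44.4%). *Eno3* left all 3 counts and *Pfkp* that of H3K27ac. *Hk2* stayed in the H3K27ac count through different starts in the 2 replicates. No H3K4me3 or H3K27ac peak lay within 3 kb of a start of *Pfkl* or *Pgam2* in any library, a state shared by 36.2% of protein-coding genes. Both sets of isoforms thus held marked and unmarked genes, 5 and 1 of the ubiquitous and 3 and 1 of the muscle isoforms within 3 kb. Within 250 bp, H3K4me3 in both replicates was left at 5 of the 6 ubiquitous and 2 of the 4 muscle isoforms.

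**Figure D2:**
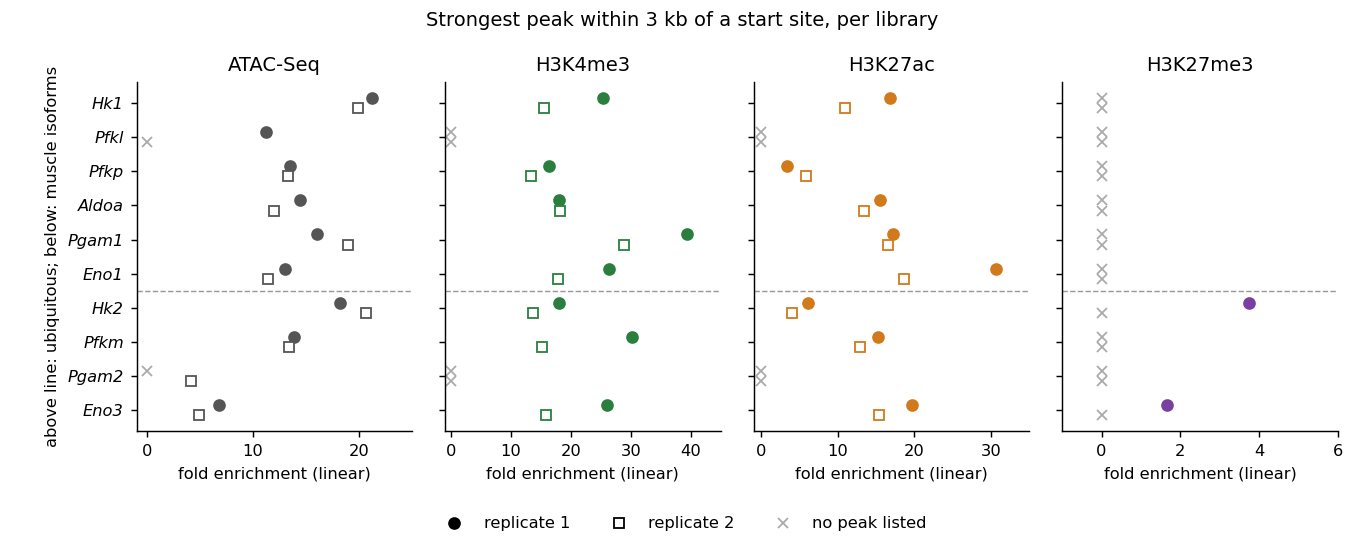
Fold enrichment (x axis, linear, the authors' value) of the strongest peak within 3 kb of a start site, for each gene (rows, ubiquitous isoforms above the dashed line) in replicate 1 (filled circles) and replicate 2 (open squares) of the 4 features. A cross marks a library without a listed peak, as for *Pfkl* and *Pgam2* in H3K4me3 and H3K27ac. *Pgam1* had the highest H3K4me3 value in each replicate (39.4 and 28.9) and *Eno1* the highest H3K27ac value (30.7 and 18.7).

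Values of replicate 1 were the higher in 7 of 8 marked genes for H3K4me3 and in 7 of 8 for H3K27ac, so genes are compared within a replicate. *Pgam1* had the strongest H3K4me3 peak of the 8 genes in both replicates, above 90.7% and 89.1% of all marked protein-coding genes. *Eno1* had the strongest H3K27ac peak in both, above 91.5% and 77.8%. *Hk2* and *Pfkp* had the weakest H3K27ac peaks, at 4.05 to 6.13 and 3.36 to 5.88, and did not overlap with the other 6 genes, of which *Hk1* had the lowest value (11.0, replicate 2).

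Hexokinase opens the pathway, and each of its isoforms had H3K4me3 in both replicates at a single place. *Hk1*, the form that most tissues carry at the mitochondrial surface, spans 111054 bp of the minus strand of chromosome 10 with 12 start sites. Its H3K4me3 lay over a single start, at chr10:62340542, in peaks at chr10:62338606-62341273 in replicate 1 (25.4-fold) and chr10:62338925-62340974 in replicate 2 (15.5-fold). H3K27ac was 16.8- and 11.0-fold there and ATAC-seq 13.6- and 13.9-fold. The start that is farthest upstream, at chr10:62379908, had no peak of any feature nearer than 17749 and 21519 bp, which were ATAC-seq peaks, and its nearest H3K4me3 lay 38579 and 38878 bp away. The marked start thus lies well inside the gene. It and the upstream start are the pair printed above, with 1 CG pair in 250 bases upstream and 6 in 129 bases at the marked start.

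*Hk2*, the form that insulin and exercise raise in muscle, was marked at its first start, at chr6:82774454. H3K4me3 was 18.1- and 13.7-fold over 2869 and 2477 bp, and ATAC-seq was 18.2- and 20.7-fold. The ATAC-seq values stood above 78.3% and 92.4% of all marked genes. H3K27ac was weak at 6.13- and 4.05-fold, above 12.6% and 1.56% of marked genes, and its peaks at chr6:82773782-82774301 and chr6:82773317-82773813 overlapped only at their ends. They lay 153 and 641 bp from the first start, and that of replicate 2 lay over a later start. In fold enrichment of the strongest peak, *Hk1* was therefore higher than *Hk2* in each replicate for both marks. The fold values of the 2 genes overlapped across replicates for H3K4me3 and did not for H3K27ac. In bases covered by H3K4me3 the order was the reverse, 2.67 and 2.05 kb at *Hk1* against 2.87 and 2.48 kb at *Hk2*.

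Inside *Hk1*, 7 and 6 ATAC-seq peaks lay beyond 3 kb of a start, all in introns, and 6 and 4 of them overlapped a peak of the other replicate. The intronic peak 79.5 kb downstream of the first start was 13-fold in both replicates and was the only site away from all promoters, around the 10 genes, with H3K27ac in both replicates, at chr10:62300096-62300411 (6.90-fold) and chr10:62300105-62300310 (4.57-fold). The strongest ATAC-seq peak of the gene lay in an intron at chr10:62320357-62321050 (21.2-fold) and chr10:62320315-62320976 (19.9-fold), 1964 and 1922 bp from a start that had no H3K4me3. *Hk2* had 10 and 6 intronic ATAC-seq peaks beyond 3 kb, 5 and 4 of them shared, such as chr6:82756204-82756524 (9.57-fold) and chr6:82756263-82756533 (10.1-fold), and none of them had H3K27ac. Both hexokinase genes thus held several intronic open sites that recurred between replicates.

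**Figure D3:**
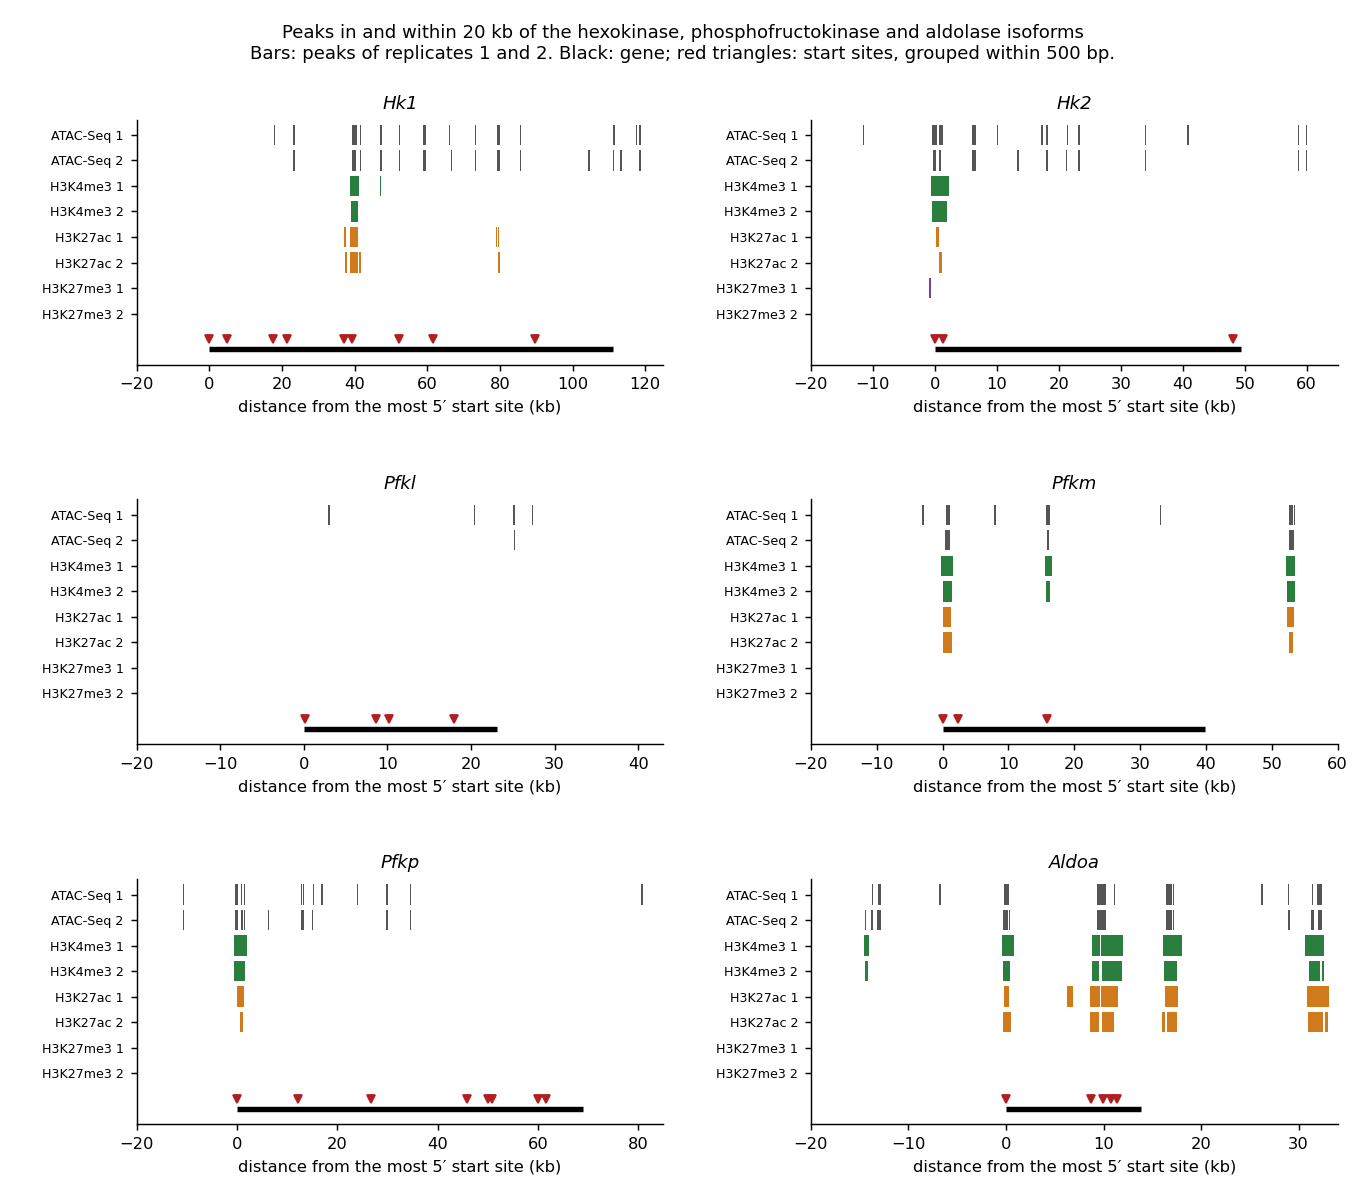
Peaks of the 8 libraries (rows, replicates 1 and 2 of each feature) in and within 20 kb of the hexokinase, phosphofructokinase and aldolase genes, against the distance from the most upstream start (x axis, kb, in the direction of transcription). Black bars are the genes and red triangles their start sites, grouped within 500 bp, and very narrow peaks are drawn at a minimum width. The H3K4me3 of *Hk1* lies well inside the gene, *Pfkm* is marked at 2 places, and *Pfkl* has ATAC-seq peaks alone.

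Phosphofructokinase is built from the products of *Pfkm*, *Pfkl* and *Pfkp*, named for muscle, liver and platelet. *Pfkm* on chromosome 15 had 2 marked start regions. At its first starts, chr15:98092589 to 98092644, H3K4me3 was 30.2- and 15.2-fold and H3K27ac 15.3- and 12.9-fold. The ATAC-seq peaks there (13.9- and 13.4-fold) lay 418 and 385 bp downstream of the starts, and all 3 features also lay within 3 kb of a start of *Senp1*, which encodes a SUMO protease. The other region, at the start chr15:98108466 inside the gene, had H3K4me3 of 15.4- and 10.4-fold and ATAC-seq of 10.1- and 12.3-fold directly over it. It had no H3K27ac, of which the nearest peak was 14540 and 14392 bp away. *Pfkm* was thus the only muscle isoform in the count of 6 above, and its H3K27ac belonged to the start region that it shares with *Senp1*. When peaks whose summit is nearer to another gene's start were left out, a rule chosen after seeing the data, *Pfkm* left the H3K27ac count.

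*Pfkp*, the platelet form, was marked at its first starts on chromosome 13 (chr13:6648725 to 6648777). H3K4me3 was 16.3- and 13.4-fold over 2575 and 2144 bp, and ATAC-seq was 13.5- and 13.3-fold with summits 22 and 17 bp from a start. H3K27ac was 3.36-fold at the start in replicate 1 and 5.88-fold but 607 bp away in replicate 2, above 0.427% and 12.3% of marked genes. The other 7 start regions of *Pfkp* had no H3K4me3 or H3K27ac within 10 kb. Like *Hk2*, it combined H3K4me3 and open chromatin with H3K27ac that was low among marked genes.

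*Pfkl*, the liver form, had neither mark. Its ATAC-seq peaks within 3 kb of a start were listed in replicate 1 alone, at chr10:78007021-78007133 (11.2-fold), 2594 bp from the nearest start and inside the gene, and at chr10:77989669-77989776 (8.13-fold). In replicate 2 the nearest ATAC-seq peak to its first starts was 24733 bp away. A peak downstream of the gene, at chr10:77984781-77985008 (6.67-fold) and chr10:77984794-77984994 (8.70-fold), was found in both replicates. The stretch without H3K4me3 around *Pfkl* was 165 and 166 kb long and held the starts of 5 protein-coding genes, *1810043G02Rik*, *Aire*, *Dnmt3l*, *Pfkl* and *Trpm2*. The stretch without H3K27ac was 442 and 445 kb long. Each stretch was drawn between the nearest peaks on either side of *Pfkl*, so the starts in it are unmarked by definition. In the gene and within 20 kb, *Pfkl* had 4 and 1 ATAC-seq peaks and no peak of H3K4me3, H3K27ac or H3K27me3. Other regions of the genome were not compared. The authors removed reads in blacklisted regions before peaks were called, and the part of this step in the absence of peaks was not tested.

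*Aldoa* cleaves the sugar bisphosphate and is the main aldolase of muscle and of many other tissues. It carries 2 GENCODE gene records on chromosome 7 (ENSMUSG00000030695.16 and ENSMUSG00000114515.2) that together hold 13 start sites, and 5 start regions. H3K4me3 lay over all 5, in 3 separate peaks per replicate. At the starts chr7:126798993 to 126799254, H3K4me3 was 16.8- and 18.2-fold, H3K27ac 15.5- and 11.0-fold and ATAC-seq 14.4- and 12-fold. At chr7:126800036 to 126800751, H3K4me3 was 18.1- and 9.56-fold and H3K27ac 14.9- and 13.4-fold. At the start farthest upstream, chr7:126809108, H3K4me3 was 12.2- and 8.71-fold, ATAC-seq 11.2- and 10.0-fold, and H3K27ac weaker at 4.98- and 4.78-fold. The upstream start was therefore marked in both replicates, with H3K27ac below that of the other regions without overlap. *Fam57b*, on the opposite strand, has a start within 3 kb of all but the upstream peak, and signal from both genes cannot be told apart there.

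Phosphoglycerate mutase had its active marks at the ubiquitous isoform alone. *Pgam1*, the form of brain and most other tissues, has its starts at chr19:41911923 to 41912076. Its H3K4me3 peaks at chr19:41911445-41913427 (39.4-fold) and chr19:41911490-41913306 (28.9-fold) covered 1.98 and 1.82 kb. ATAC-seq was 16- and 19-fold and H3K27ac 17.2- and 16.6-fold. All 3 features thus lay on the starts of *Pgam1* in both replicates.

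*Pgam2*, the muscle form, has a single transcript that starts at chr11:5803733 on the minus strand. No H3K4me3 or H3K27ac peak lay near that start. The stretch without H3K4me3 was 47.4 and 47.8 kb long and held the starts of *Pgam2* and *Polm* alone. The nearest H3K4me3 and H3K27ac peaks, 14061 and 14286 bp and 14455 and 14485 bp away, lay at the promoter of *Dbnl*. H3K27me3 was also absent, with the nearest peaks 487 and 261 kb away. *Pgam2* was thus without both active marks and without the repressive mark in these lists.

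The only peak within 3 kb of the *Pgam2* start was an ATAC-seq peak of replicate 2 at chr11:5803861-5803997, with a fold enrichment of 4.13 and a −log10 q of 5.21. It was 137 bp wide and stood above 1.49% of the marked genes of that library. It lies within the stretch of *Pgam2* printed above and covers both the CAGCTG and the MEF2 match, the first 9 bp and the second 54 bp from its summit. Replicate 1 listed no peak there, so the site was not found in both. An ATAC-seq peak of 12.1- and 13.7-fold at chr11:5795710-5796062 and chr11:5795717-5796074, 7.82 and 7.83 kb downstream of the start, was found in both. It lies outside the gene and nearer to a start of *Dbnl* (7180 and 7187 bp) than to that of *Pgam2* (7671 and 7659 bp).

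**Figure D4:**
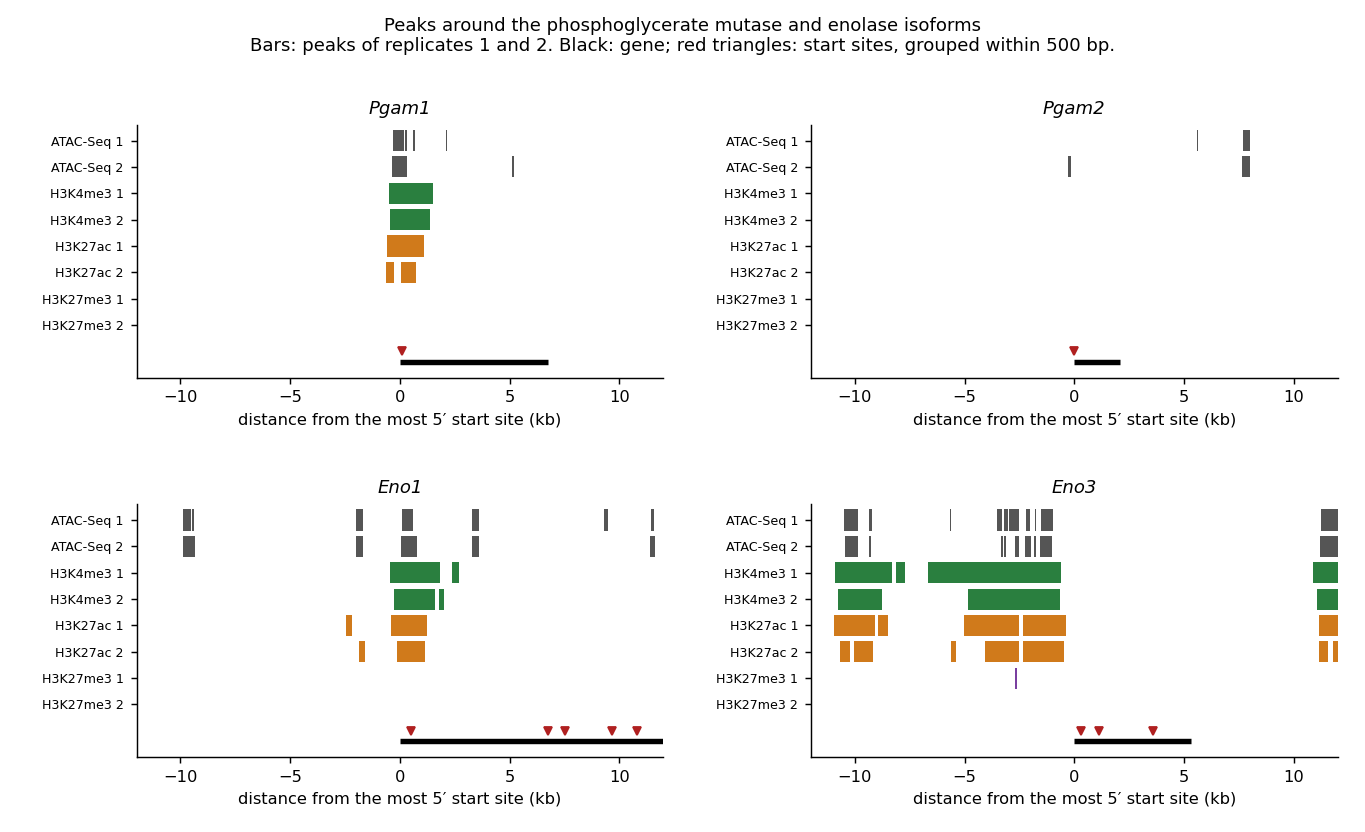
Peaks of the 8 libraries (rows) within 12 kb of the most upstream start of the phosphoglycerate mutase and enolase genes, against the distance from that start (x axis, kb, in the direction of transcription). Black bars are the genes and red triangles their start sites, grouped within 500 bp, and very narrow peaks are drawn at a minimum width. H3K4me3 and H3K27ac lie on the first starts of *Pgam1* and *Eno1*, are missing at *Pgam2*, and end 365 to 632 bp before the first start of *Eno3*.

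Enolase showed a contrast of another kind. *Eno1*, the form of most tissues, had H3K4me3 of 26.4- and 17.8-fold, H3K27ac of 30.7- and 18.7-fold and ATAC-seq of 13- and 11.4-fold on its first starts (chr4:150236721 to 150237700). Its 4 later start regions had no H3K4me3 or H3K27ac within 4 kb. No start of another protein-coding gene lay within 3 kb of a peak of its region, and 8 ATAC-seq peaks per replicate lay in the flanks. The strongest of them, at chr4:150257282-150257756 (15.5-fold) and chr4:150257276-150257641 (13.8-fold), 20.7 kb downstream of the first start, exceeded the promoter's own ATAC-seq value in both replicates.

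*Eno3*, the muscle form, has 7 start sites from chr11:70657202 to 70660773 and no peak of any feature over them. The H3K4me3 peaks counted for it, at chr11:70650527-70656602 (26.1-fold) and chr11:70652352-70656570 (15.8-fold), ended 600 and 632 bp before its first start. The H3K27ac peaks ended 365 and 488 bp and the ATAC-seq peaks 985 and 1008 bp before it. Most of these peaks had summits nearer to a start of *Pfn1*, which encodes the actin-binding protein profilin, than to one of *Eno3*. The exception was the H3K27ac peak nearest to *Eno3* in replicate 2 (15.4-fold). *Eno3* left the counts of all 3 features under the same rule, which asks for such a peak in both replicates. From there to the next H3K4me3 peak, at the promoter of *Spag7*, the stretch without H3K4me3 was 11.5 and 11.7 kb long and held no start of another protein-coding gene. *Eno3* thus counts as marked within 3 kb and as unmarked within 250 bp, and the strongest ATAC-seq values in its window, 6.78 and 4.88, were above only 11.0% and 4.45% of marked genes.

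Bases in peaks allow each ubiquitous isoform to be set against its muscle partner over the same window of 3 kb either side of all starts. The genes differ in how many bases this window holds, from 6.00 kb at *Pgam2* to 46.9 kb at *Hk1*, so the kilobases in peaks are given beside the share. *Pgam1* exceeded *Pgam2* by 30.9 ± 1.91 percentage points (SD, n = 2) or 1.90 ± 0.117 kb in H3K4me3 and by 22.3 ± 6.65 points or 1.37 ± 0.409 kb in H3K27ac. *Pfkl* was below *Pfkm*, with differences of −17.2 ± 3.99 points or −2.46 ± 0.569 kb in H3K4me3 and −8.95 ± 0.733 points or −1.28 ± 0.105 kb in H3K27ac. All H3K27ac bases of *Pfkm*, and its stronger H3K4me3 peak, lay in the start region that it shares with *Senp1*. In each of these 2 pairs a gene had 0 bases in peaks, the muscle isoform *Pgam2* in the first and the ubiquitous isoform *Pfkl* in the other.

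In the other pairs the differences were large as shares and small in kilobases for H3K4me3. *Hk1* minus *Hk2* was −14.8 ± 1.13 points but −0.314 ± 0.160 kb, *Pfkp* minus *Pfkm* −10.8 ± 3.16 points but −0.0960 ± 0.264 kb, and *Eno1* minus *Eno3* −11.1 ± 1.59 points but −0.0510 ± 0.286 kb. In kilobases the last 2 differed by less than the spread between replicates. For H3K27ac, *Hk1* had 2.57 ± 0.0940 kb more in peaks than *Hk2* (2.79 ± 0.287 points), 3.02 and 3.13 kb against 0.520 and 0.497 kb. *Pfkp* minus *Pfkm* was −0.351 ± 0.619 kb, within the spread. *Eno1* minus *Eno3* was −0.696 ± 0.180 kb and −14.9 ± 0.648 points, with the bases of *Eno3* lying on the *Pfn1* side of its window. Within 1 kb of the starts, the difference of *Eno1* and *Eno3* turned to 16.9 points for H3K4me3 and 5.11 points for H3K27ac.

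**Figure D5:**
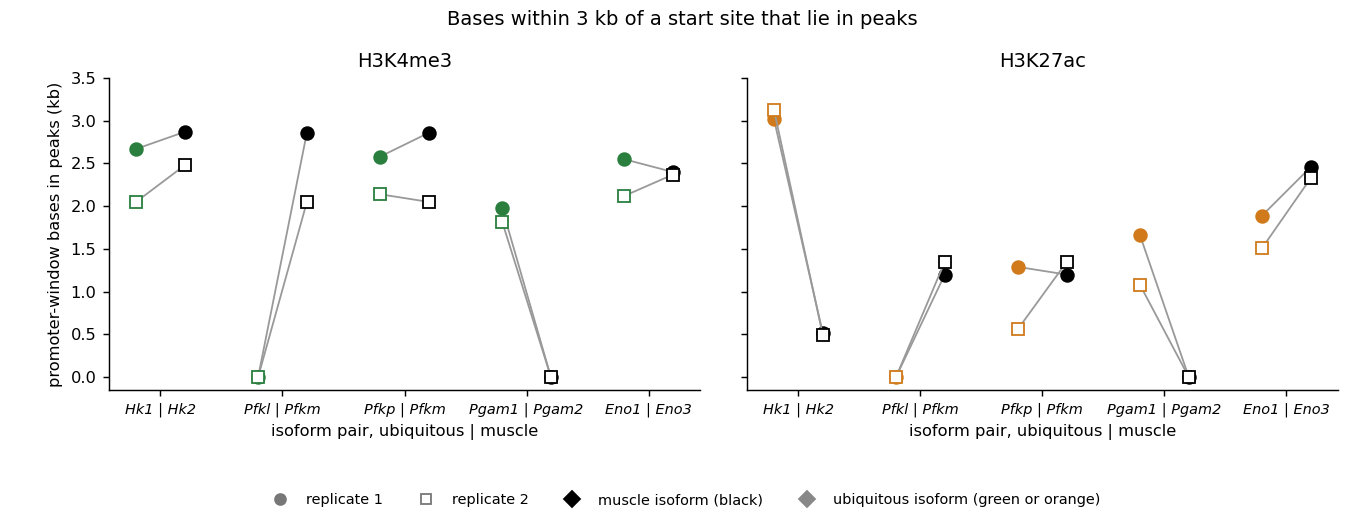
Kilobases within 3 kb of a start site that lie in peaks (y axis) for each ubiquitous isoform (coloured) and its muscle partner (black), joined by a line per replicate. H3K4me3 is on the left and H3K27ac on the right. The lines of *Pfkl* with *Pfkm* and of *Pgam1* with *Pgam2* slope in opposite directions in both panels.

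Within the genes and 20 kb either side, 117 and 91 ATAC-seq peaks, 23 and 22 H3K4me3 peaks, 25 and 29 H3K27ac peaks, and 2 and 0 H3K27me3 peaks were listed. Of the ATAC-seq peaks 84 and 77 overlapped a peak of the other replicate, and of the H3K4me3 peaks 20 and 22. Promoters of other genes alone held 10 H3K4me3 peaks in each replicate, and 4 more lay within 3 kb of starts of both a member and another gene. The only H3K4me3 peak away from all promoters was a 3.95-fold peak of replicate 1 in an intron of *Hk1*. *Aldoa* and *Eno3* lie in gene-dense stretches. Promoters of other genes alone held 10 and 8 ATAC-seq peaks around *Aldoa* and 8 and 6 around *Eno3*. Within 3 kb of starts of both the member and another gene lay 3 and 1 more for *Aldoa* and 6 and 4 for *Eno3*. Nearly all H3K4me3 around the 10 genes thus lay at promoters, while 22 and 16 ATAC-seq peaks lay inside the genes and 20 and 18 in the flanks, away from any promoter.

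The genome holds further isoforms of the same enzymes. *Hk3*, *Hkdc1*, *Aldoc*, *Eno2* and *Eno4* all had an ATAC-seq peak within 3 kb of a start in both replicates. *Aldoc* and *Eno2*, the neural aldolase and enolase, had H3K4me3 of 31.2- and 25.3-fold and of 11.5- and 9.82-fold, *Aldoc* with H3K27ac in replicate 1 alone and *Eno2* with none. *Eno4* had H3K4me3 of 17.9- and 12.6-fold, with H3K27ac in replicate 1 alone. The hexokinase genes *Hk3* and *Hkdc1* had weak H3K27ac in both replicates, at 5.12- and 4.05-fold and at 3.45- and 3.47-fold, and H3K4me3 in replicate 1 of *Hk3* alone. None of these genes thus had H3K4me3 and H3K27ac together in both replicates. The H3K4me3 values of *Aldoc* were above those of *Aldoa* in both replicates, and peaks of neighbouring genes were not set apart in this count.

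Of 30 genes of other steps, transporters and regulators of glycolysis, 28 had ATAC-seq, 27 H3K4me3, 23 H3K27ac and 0 H3K27me3 within 3 kb of a start in both replicates, and 23 had the first 3 without H3K27me3 in either. Over all protein-coding genes the shares in the same order were 67.8%, 60.8%, 46.6%, 4.81% and 44.4%. The genes without H3K4me3 were *Pgk2* and *Ldhc*, forms of the testis, and *Pklr*, the pyruvate kinase of liver and red blood cells. *Gapdhs*, another form of the testis, had all 3 features in both replicates, and peaks of neighbouring genes were not set apart. The genes with H3K4me3 but without H3K27ac in both replicates were *Ldhb*, *Tigar*, *Pdk3* and *Slc16a3*. The steps that have a single main gene, *Gpi1*, *Tpi1*, *Gapdh* and *Pgk1*, had all 3 features in both replicates. The list was chosen, like the 10 genes, with earlier results of these data known, and its counts describe the pathway around the 10 genes.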

How the data were processed

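The 8 lists came from ATAC-seq and ChIP-seq of sorted MuSCs. Per the study's methods and the submitters' processing notes, the authors used Trim Galore for adapters and BWA for alignment to mm10. They discarded duplicates, poorly mapped reads and the ENCODE blacklist, and ran MACS2 on each library without pooling. The deposited columns used were the fold enrichment at the summit, a linear ratio, and the −log10 p-value and −log10 q-value. The H3K27me3 lists reach down to a −log10 p of 3.01 and hold peaks of any q, so they are looser than the others. The deposited integer score was not used.

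Start sites came from all GENCODE M21 transcripts of mm10, and promoter sequences from RefSeq (GRCm38.p6). A gene was counted when a peak overlapped 3 kb either side of a start in both replicates, and peaks were read in the gene and 20 kb either side. Start sites within 500 bp were grouped. The overlap code (Python 3.11.15, pandas 2.3.3) was tested on simulated data. All 10 members are named, and other genes only as other isoforms, as genes of the fixed lists or as neighbours. The members and lists were chosen with earlier results of these data known. Counts were repeated with a 1 kb window, a −log10 q of at least 5, summits in place of peaks, protein-coding transcripts alone and each replicate alone. Some other isoforms are not reported here, and the other samples of the series were not analysed here.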

Additional observations from a re-analysis of the deposited data

How the results depend on the processing

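Counts of genes with peaks in both replicates stayed within 1.5 times the reported value in 40 of 41 alternatives. The exception was H3K27me3 with a replicate left out, 0 to 2 genes, through *Hk2* and *Eno3* in replicate 1. *Hk2* and *Pfkp* left the H3K27ac count at a −log10 q of at least 5, which gave 6. The mean number of H3K27me3 peaks around the 10 genes, 1.000, fell to 0 at that limit and ran from 0 to 2.000 with a replicate left out. The genes with all 3 features and no H3K27me3 also changed. *Eno3* took the place of *Pfkp* at a −log10 q of at least 5, and *Hk2* did so within 250 bp. In replicate 2 alone *Hk2* and *Eno3* joined, which gave 8. When peaks with the summit nearer to another gene's start were left out, *Pfkm* dropped out. That gave 5, all of them ubiquitous isoforms. Of 60 alternatives for the share of the promoter window in peaks, 42 moved by less than the spread between replicates. The 42 include every alternative with a replicate left out. With 2 replicates such a mean must move by less than their SD, so those alternatives say nothing about stability. A window of 1 kb reversed *Eno1* minus *Eno3*, to 16.9 percentage points for H3K4me3 and 5.11 for H3K27ac. It also moved H3K4me3 to −40.1 for *Hk1* minus *Hk2*, −36.8 for *Pfkl* minus *Pfkm*, −26.0 for *Pfkp* minus *Pfkm* and 74.7 for *Pgam1* minus *Pgam2*, and H3K27ac to 3.57, −17.4, −12.7 and 63.8. Protein-coding transcripts alone gave −30.0, −4.12 and −6.63 for the *Hk*, *Pfkp* and *Eno* pairs in H3K4me3 and 0.720, −3.81 and −11.7 in H3K27ac. A −log10 q of at least 5 gave 3.77 and −16.4 for the *Hk* and *Eno* pairs in H3K27ac. A narrower window or fewer starts changes the bases over which a share is taken. Isoform differences were taken within each replicate, and no test was run on them because each feature had only 2 replicates. Depth is unknown, so a missing peak cannot be told from signal under the caller's limit.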
